A study of Mus musculus with 18 samples.

Results

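The glutathione peroxidases Gpx1, Gpx2, Gpx3, Gpx4, Gpx7 and Gpx8 and the antioxidant genes Nqo1, Hmox1, Gclm and Txnrd1 were followed through mouse embryonic stem cells in which Foxd3 or NFATc3 had been altered. They are 10 of the 18193 genes that the arrays read with at least 1 probe set of a single gene symbol, and were taken by symbol, with all 14 of their probe sets. RNA had been hybridised to 18 Affymetrix arrays in 6 groups of 3 labelled biological replicates. Of the transfected CGR8 cells, a stem cell line kept in serum and LIF, 3 arrays each carried the plasmid labels Foxd3, CA-NFATc3, both, or empty vector. The remaining arrays were of Foxd3fl/fl:Cre-ERT cells, in which both Foxd3 alleles are floxed and tamoxifen activates the recombinase: 3 had received tamoxifen for 2 days and 3 had received DMSO (0 days). The labels give these conditional knockout cells the same line name, CGR8; the sources used here do not give what drives the Cre, whether the cells are 1 clone, the plasmid promoters or the time after transfection. A tamoxifen-treated control without floxed Foxd3 is not among the groups, so effects of the drug, of the recombinase and of the deletion cannot be told apart.

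Glutathione peroxidases reduce hydrogen peroxide and lipid peroxides with electrons from glutathione. Gpx1, Gpx2, Gpx3 and Gpx4 carry selenocysteine in the active site: Gpx1 is the general intracellular enzyme, Gpx2 the epithelial one, Gpx3 is secreted, and Gpx4 reduces phospholipid peroxides in membranes and so protects cells from ferroptosis. Gpx7 and Gpx8 carry cysteine instead and lie in the endoplasmic reticulum, where they take part in oxidative protein folding. Nqo1 (a quinone reductase), Hmox1 (haem oxygenase, which degrades haem), Gclm (the modifier subunit of the enzyme that starts glutathione synthesis) and Txnrd1 (cytosolic thioredoxin reductase, also a selenoprotein) are classical targets of the transcription factor NRF2, encoded by Nfe2l2, which Keap1 sends to degradation and Bach1 opposes at shared sites.

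Signals below are MAS5 signals on a linear scale, changes are log2 differences of signal plus 32 ± SE of the limma fit with 3 arrays a group, and calls were made below an adjusted p of 0.05, over all genes tested. All 10 genes passed the filter on low signals, which required 65.8, the median of all deposited values, in at least 3 arrays of a fit. The median signal per array was 55.2 to 67.1 in the transfected and 73.0 to 80.7 in the conditional knockout cells. All 8 stem cell markers examined, Pou5f1, Nanog and Sox2 among them, had a mean above the filter in every group. The Foxd3 signal was 237 ± 5.95 (SD) in the arrays labelled Foxd3 against 443 ± 55.9 with vector, opposite to the label. With both plasmids it was 234 ± 37.7, also below vector (-0.84, adjusted p = 0.000816) and below the 451 ± 38.6 with CA-NFATc3 (-0.87, adjusted p = 0.000452). Directions for both groups that carry the Foxd3 label, and for the interaction, therefore hold for the label only. In the conditional knockout cells Foxd3 was at 31.4 ± 29.6 with tamoxifen and 219 ± 25.9 with DMSO. Nfatc3 did not pass for CA-NFATc3 against vector (log2 0.13, adjusted p = 0.352). Whether the Foxd3 and Nfatc3 probe sets read the transcripts of the plasmids was not tested, so these signals do not tell whether the plasmids were expressed. In such bulk RNA, fewer cells of a type and less RNA per cell cannot be told apart.

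**Figure D1:**
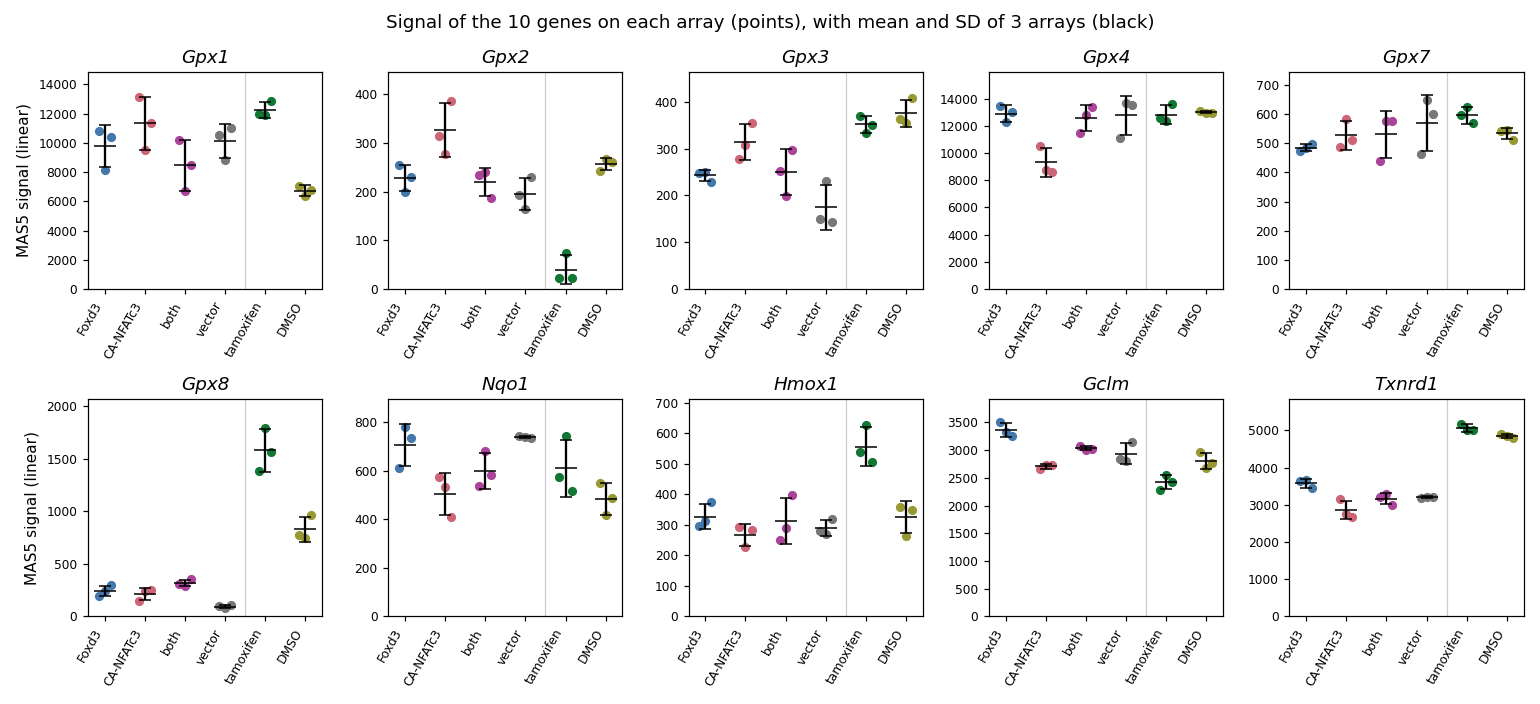
MAS5 signal (linear, from 0) of each gene on the 18 arrays, in 1 panel a gene; points are arrays, black marks the mean and SD of 3 arrays, and the grey line parts the transfected cells (left) from the conditional knockout cells (right). Gpx8 lies highest with tamoxifen (1382 to 1793) and lowest with vector (74.9 to 110.1), Gpx2 drops with tamoxifen (22.2 to 74.2), and Gpx4 is lowest with CA-NFATc3 (8635 to 10493).

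Among the selenium-dependent peroxidases, each had its own order over the 6 groups. Overlap between neighbouring groups, here and in the next paragraph, describes these arrays only, as the share of all genes without overlap was not counted. Between transfected and conditional knockout arrays, cells, transfection and any batch also cannot be told apart. The mean Gpx1 signal was highest with tamoxifen (12257) and lowest with DMSO (6733). Between them lay CA-NFATc3 (11349), the label Foxd3 (9800.5), both plasmids (8469) and vector (10118), and in order of level each group's arrays overlapped those of the next. For Gpx2 the tamoxifen arrays (mean 39.5) stood below all others, and CA-NFATc3 (326) stood above DMSO (256), the group next to it, without overlap, while the label Foxd3 (228), both plasmids (220.5), vector (196) and DMSO overlapped in turn. The Gpx3 means were 352 with tamoxifen and 375 with DMSO, and below these 314 with CA-NFATc3, 250.3 with both plasmids, 243 with the label Foxd3 and 175 with vector, and neighbours in order of level overlapped. Gpx4 had 1 group apart, CA-NFATc3 at 9304, below the overlapping means of 12543 to 12994 in the other groups.

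Of the cysteine peroxidases, Gpx7 had means of 485 to 596 with all neighbouring groups overlapping and was called in none of the 8 comparisons. Gpx8 spanned the widest range of the 10 genes relative to its own lowest group: its mean was 1580.2 with tamoxifen, 827 with DMSO, 318 with both plasmids, 244 with the label Foxd3, 212 with CA-NFATc3 and 93.1 with vector. Tamoxifen and DMSO, DMSO and both plasmids, and CA-NFATc3 and vector were the neighbours that did not overlap. Among the NRF2 targets, Hmox1 had means of 267 to 327 in 5 groups that overlapped in turn and 556 with tamoxifen, apart from them. Nqo1 means lay between 485 (DMSO) and 740.4 (vector), with every neighbour overlapping. In the probe set that stands for it, Gclm ran from 2425 with tamoxifen to 3360.0 with the label Foxd3, both ends apart from their neighbours. In its other probe set DMSO (275) was below tamoxifen (313), and the label Foxd3 (444 to 635) overlapped both plasmids (471 to 596). Txnrd1, likewise by the probe set that stands for it, ran from 2861 with CA-NFATc3 to 5061 with tamoxifen. There the label Foxd3 (3581), DMSO (4844) and tamoxifen each stood apart from the group below. In its other probe sets each of these groups overlapped the group below.

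The arrays labelled Foxd3 were set against vector for the effect of the Foxd3 plasmid. Gpx8 was the 1 gene of the 10 that rose. Its signals were 197, 240.4 and 294 in the arrays labelled Foxd3, against 94.2, 74.9 and 110.1 with vector. The groups did not overlap, and the difference was 1.14 ± 0.19 (2.20-fold, limma adjusted p = 0.00285). The other 9 did not pass, with differences from -0.21 (Gpx7) to 0.43 (Gpx3, adjusted p = 0.231), where 2.88% of all genes were called (1.71% higher). Gclm (0.19, adjusted p = 0.136) and Txnrd1 (0.16, adjusted p = 0.31) had no overlap between the groups in the probe set that stands for each, all 3 arrays labelled Foxd3 lying higher. In the other Gclm probe set (0.41) and the other 2 of Txnrd1 (0.02 and -0.29) the groups overlapped. The share of all genes without overlap was not counted, so this is no result for Gclm or Txnrd1. The median over the 10 genes was 0.16, and -0.01 over all genes tested. Of 86 further genes of redox lists that were tested, 4 were higher and 0 lower (4.65% called): the lipid-remodelling enzyme Acsl4 (0.61, adjusted p = 0.00688), the transferase Gstm1 (0.73), the ferritin heavy chain Fth1 (0.22) and the peroxiredoxin Prdx2 (0.20).

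The promoter of Gpx8 held none of the sites searched, and is shown because the gene rose under every plasmid. Here and below, the bases before the transcript start of the RefSeq promoter table (GRCm38.p6) are printed 5′ to 3′ on the gene's strand, without bases that another transcript of the gene covers. The 250 bases before each start were searched on both strands for GGAAA (the core of an NFAT site), TGTTTA (forkhead core), TGACTCA (AP-1 site) and TGACNNNGC (core of the antioxidant response element that NRF2 binds); no motif's match was counted for another. Of 32851 promoters in that table, 55.6% held the first, 12% the second, 4.5% the third and 10.2% the fourth.
Gpx8, chr13:113046431-113046638, minus strand: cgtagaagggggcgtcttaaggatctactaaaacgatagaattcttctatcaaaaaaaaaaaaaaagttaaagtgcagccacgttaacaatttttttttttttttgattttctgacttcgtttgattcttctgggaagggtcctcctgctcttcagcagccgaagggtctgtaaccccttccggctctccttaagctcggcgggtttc

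CA-NFATc3, by its name an active form of NFATc3, the calcineurin-activated transcription factor, was set against vector for the effect of NFATc3 activity. Gpx2, Gpx3 and Gpx8 rose, Gpx4 and Nqo1 fell, and Gpx1, Gpx7, Hmox1, Gclm and Txnrd1 did not pass; 5.86% of all genes were called (4.62% higher and 1.24% lower). Gpx2 had signals of 313, 278 and 387 with CA-NFATc3, against 194, 164 and 229 with vector. No array overlapped, and the change was 0.65 ± 0.15 (limma adjusted p = 0.0164). Gpx3 had 279, 307 and 356 with CA-NFATc3, against 151, 230.0 and 144 with vector (0.76 ± 0.17, adjusted p = 0.0108). The second vector array was the highest of its group and still lay below every CA-NFATc3 array. Gpx8 had 143, 245 and 247 with CA-NFATc3, against the vector values above (0.94 ± 0.19, adjusted p = 0.00549), and its first CA-NFATc3 array was the one nearest to vector.

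Gpx4 had signals of 10493, 8783 and 8635 with CA-NFATc3, against 11109, 13681 and 13528 with vector. It fell by 0.46 ± 0.09 on the log2 scale (limma adjusted p = 0.00464), and its groups did not overlap. In its other probe set the signals were 9993, 8861 and 8367 with CA-NFATc3, against 11627, 13678 and 13905 with vector, a change of -0.52 in the limma fit of all probe sets (adjusted p = 0.00112, with 3.57% of all probe sets called). Both probe sets thus moved the same way and by a similar amount. Nqo1 had 575, 533 and 408 with CA-NFATc3, against 744, 741 and 736 with vector (-0.54 ± 0.13, adjusted p = 0.0175); the vector arrays lay close together and all above the CA-NFATc3 arrays. Hmox1 (-0.10), Gclm (-0.11) and Txnrd1 (-0.17, adjusted p = 0.238) did not pass. In the probe sets that stand for Gclm and Txnrd1 all CA-NFATc3 arrays were below all vector arrays. The groups overlapped in the other Gclm probe set and in 1 of the other 2 of Txnrd1. As above, the share of all genes without overlap was not counted. Without CA-NFATc3 replicate 3 the calls of Gpx2 (adjusted p = 0.121), Gpx3 (0.0795) and Nqo1 (0.118) ended, and each also ended without at least 2 of the vector arrays in turn, Nqo1 without any 1 of them (0.0535 to 0.0604). Those of Gpx4 and Gpx8 held in every alternative run, with adjusted p of at most 0.0427 and 0.0475.

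**Figure D2:**
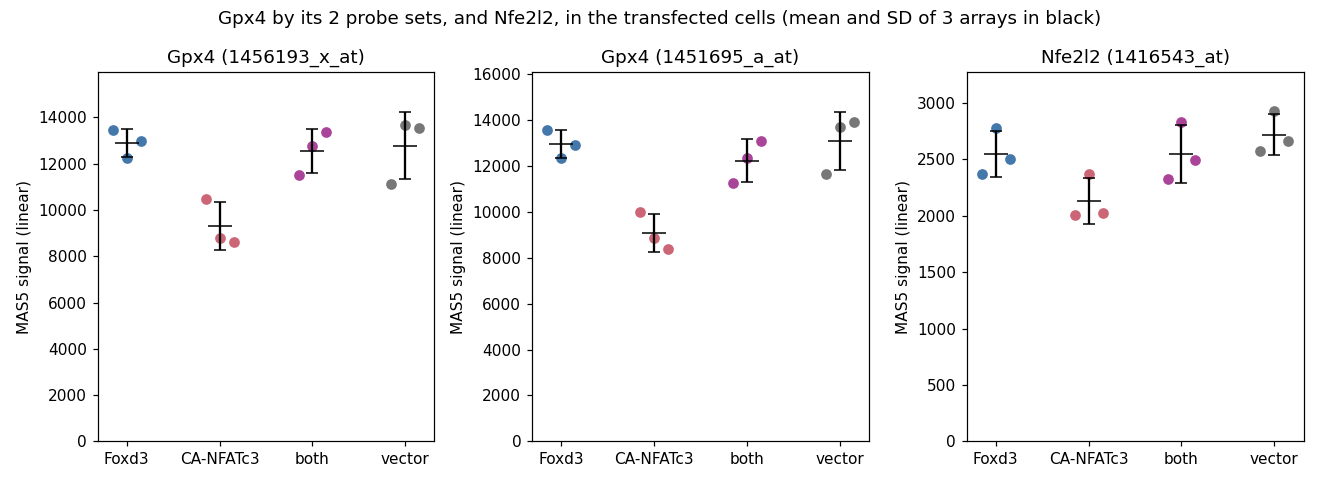
MAS5 signal (linear, from 0) of Gpx4 by each of its 2 probe sets and of Nfe2l2 in the 12 arrays of transfected cells; points are arrays, black marks the mean and SD of 3 arrays. CA-NFATc3 is the lowest group in all 3 panels, and for Gpx4 the arrays with both plasmids overlap those with vector in either probe set. Nfe2l2 is shown by the brighter of its 2 probe sets. In the dimmer one, not shown, CA-NFATc3 averaged 106 and vector 86.3, with overlap and no call.

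Nfe2l2, which encodes NRF2, had signals of 2003, 2367 and 2028 with CA-NFATc3, against 2573, 2928 and 2659.8 with vector, a change of -0.35 ± 0.09 (adjusted p = 0.0339). The call rests on 1 of its 2 probe sets and on the fit of genes. In the fit of all probe sets that one did not pass (adjusted p = 0.0522) and the dimmer one was at 0.24 (adjusted p = 0.737). The mean of both was at -0.05 (adjusted p = 0.902), and the call also ended without CA-NFATc3 replicate 1 or 3 or vector replicate 2 or 3. Keap1 (-0.03) and Bach1 (-0.03) did not pass. Among all 19 tested genes of the NRF2 target list, 2 were higher and 2 lower, where 5.86% of all genes were called. The list median was -0.10, against -0.00499 over all genes. The higher ones were the NADPH source Me1 (0.90 ± 0.15, adjusted p = 0.00152) and Ugdh (0.41), which makes UDP-glucuronate; beside Nqo1 the lower one was Pir (-0.37). The target Srxn1, which restores oxidised peroxiredoxins, was at -0.41 (adjusted p = 0.0985), and Gclc, the catalytic partner of Gclm, at -0.23 (adjusted p = 0.304). Slc7a11, the cystine transporter, stayed under the signal filter with 2.50 to 43.7 on all 18 arrays.

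The other redox lists held the following calls with CA-NFATc3, where 5.86% of all genes were called (4.62% higher and 1.24% lower). Slc40a1, the iron exporter ferroportin, rose by 1.98 ± 0.16 and Acsl4 by 0.73, the 2 called of 11 genes of iron handling and lipid peroxidation. The glutaredoxin Glrx rose by 0.89 ± 0.13, the 1 called of 16 genes of the thioredoxin list. Sod1, the cytosolic superoxide dismutase, fell by 0.18 (adjusted p = 0.0334), the 1 called of 4, with Sod2 (-0.20) and Cat (-0.08) not passing. Selenos was the 1 called of 18 selenoprotein genes (0.42), Maff the other called NRF2 regulator (0.75), and 0 of 15 glutathione S-transferases were called. Over all lists without the 10 genes, 7 of 86 were higher and 3 lower (11.6% called). Markers of other cell types moved in the same comparison: 3 of 7 tested trophectoderm markers and 2 of 5 of primitive and visceral endoderm were higher. The summed signal of the 10 endoderm markers was 662 to 1034 with CA-NFATc3 and 443 to 622 with vector, and that of the 9 trophectoderm markers 4968 to 5321 with CA-NFATc3 and 3389 to 4028 with vector. Afp, Ttr and Apoa1, defining markers of visceral endoderm, had means under the filter in both groups. So did the trophectoderm markers Cdx2 and Gata3, and Tfap2c was the brightest of that list (3092 with CA-NFATc3, 2849 with vector). The part of these marker changes in those of Gpx2, Gpx3, Gpx4 and Nqo1 was not tested.

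Gpx2 and Gpx3, the selenoperoxidases that rose with CA-NFATc3, both held GGAAA before their start, in capitals below (TTTCC is the same site on the other strand), Gpx2 3 times and Gpx3 2 times. So did the windows of Gpx7, of 2 of 4 Gpx4 starts and of 2 of 3 Txnrd1 starts, and 55.6% of all promoters. Gpx8, which also rose with CA-NFATc3, held none. Nqo1, which fell, held none of the 4 motifs, and Gclm held 1 antioxidant response element core, in capitals as it reads on the gene's strand; 1 Txnrd1 start also held 1. Gpx1 held 1 forkhead core, a motif that 12% of all promoters held. In all, 9 of the 10 genes had a promoter in the table, Hmox1 being the exception. These matches are descriptions of the letters in these windows.
Gpx2, chr12:76795555-76795804, minus strand: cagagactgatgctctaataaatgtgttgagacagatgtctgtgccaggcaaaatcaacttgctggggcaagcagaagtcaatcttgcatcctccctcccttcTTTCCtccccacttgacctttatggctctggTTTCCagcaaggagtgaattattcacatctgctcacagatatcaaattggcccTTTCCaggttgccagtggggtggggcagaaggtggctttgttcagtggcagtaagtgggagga
Gpx3, chr11:54902604-54902853, plus strand: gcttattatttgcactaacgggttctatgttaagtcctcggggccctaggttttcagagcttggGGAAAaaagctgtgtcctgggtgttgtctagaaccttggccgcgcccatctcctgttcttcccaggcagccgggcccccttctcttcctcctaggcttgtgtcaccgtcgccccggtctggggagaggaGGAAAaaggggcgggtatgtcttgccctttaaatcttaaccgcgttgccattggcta
Nqo1, chr8:107403206-107403455, minus strand: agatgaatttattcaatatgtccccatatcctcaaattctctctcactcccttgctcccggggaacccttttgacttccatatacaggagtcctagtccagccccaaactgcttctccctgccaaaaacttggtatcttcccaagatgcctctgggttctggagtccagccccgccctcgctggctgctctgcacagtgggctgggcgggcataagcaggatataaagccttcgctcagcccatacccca
Gclm, chr3:122245307-122245486, plus strand: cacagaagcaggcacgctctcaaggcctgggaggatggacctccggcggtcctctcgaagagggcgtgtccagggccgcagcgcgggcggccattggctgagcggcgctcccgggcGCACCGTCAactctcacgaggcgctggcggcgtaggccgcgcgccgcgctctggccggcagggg

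Cells with both plasmids were set against vector for the joint effect, and against CA-NFATc3 for the Foxd3 label beside CA-NFATc3, where the Foxd3 signal was lower in the arrays with both. Against vector Gpx8 rose again and was the 1 gene called, where 4.82% of all genes were called (3.48% higher). Its signals were 310.3, 290.1 and 353 with both plasmids, against 94.2, 74.9 and 110.1 with vector (1.49 ± 0.19, 2.81-fold, limma adjusted p = 0.000207). The 3 comparisons with vector share its 3 arrays, so the Gpx8 differences of 1.14, 0.94 and 1.49 are not independent of each other. With replicate number as a block, Gpx1 was also called lower (-0.27, adjusted p = 0.0153, and 0.366 without the block). The block called 1122 of all 11609 genes, against 559 without it. Without vector replicate 2, Gpx3 was also called higher (adjusted p = 0.0409). Of the 86 other redox genes, Acsl4 (0.85) and the microsomal transferase Mgst1 (0.49) were higher and Sod2, the mitochondrial superoxide dismutase, was lower (-0.30, adjusted p = 0.0097).

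Against CA-NFATc3, Gpx4 was higher with both plasmids. Its signals were 11500.1, 12760.1 and 13368 with both, against 10493, 8783 and 8635 with CA-NFATc3 (0.43 ± 0.09, limma adjusted p = 0.00747), with no overlap, and the other probe set gave 0.43 (adjusted p = 0.00622, with 3.92% of all probe sets called). This was the 1 call of 10, at 6.12% of all genes called (2.44% higher), and it ended without CA-NFATc3 replicate 3 (adjusted p = 0.0542). With replicate number as a block, 1258 of all 11609 genes were called, against 711 without it. Of the 10 genes 4 were called with the block: Gpx1 (-0.43, adjusted p = 0.000523) and Gpx2 (-0.50, 0.0387) lower, Gpx8 (0.55, 0.036) and Gpx4 higher. Without the block those of Gpx1, Gpx2 and Gpx8 were 0.111, 0.0691 and 0.117. Nfe2l2 was at 0.25 (adjusted p = 0.137). Markers of other cell types moved here too: 4 of 7 trophectoderm markers (median -0.58) and 2 of 5 endoderm markers (median -0.59) were lower with both plasmids and 0 higher, and 1 of 5 fibroblast markers was higher. Their part in the Gpx4 difference was not tested.

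The CA-NFATc3 plasmid added to Foxd3 changed 0 of the 10 genes in limma, at 0.327% of all genes called. An unadjusted p under 0.05 was reached by 2 of the 10 and by 807 of all 11609 genes. The differences of the 10 ran from -0.22 (Gpx1) to 0.35 (Gpx8, adjusted p = 0.782). The interaction, that is the Foxd3 difference with CA-NFATc3 minus that without, was also called for 0 of 10, at 0.810% of all genes. Here 4 of the 10 and 985 of all 11609 genes had an unadjusted p under 0.05. Gpx4 stood at 0.41 ± 0.13 (adjusted p = 0.218), Gpx2 at -0.70 ± 0.22 (0.223) and Gpx3 at -0.74 ± 0.24 (0.248). The size of the CA-NFATc3 response was therefore not shown to depend on the Foxd3 plasmid for these genes. Single settings called 1 gene each, Gpx4 with array weights (0.50, adjusted p = 0.0357) and Gpx1 with the replicate block (-0.38, adjusted p = 0.0444). Over all genes these settings called 172 and 245, against 94 in the main fit.

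**Figure D3:**
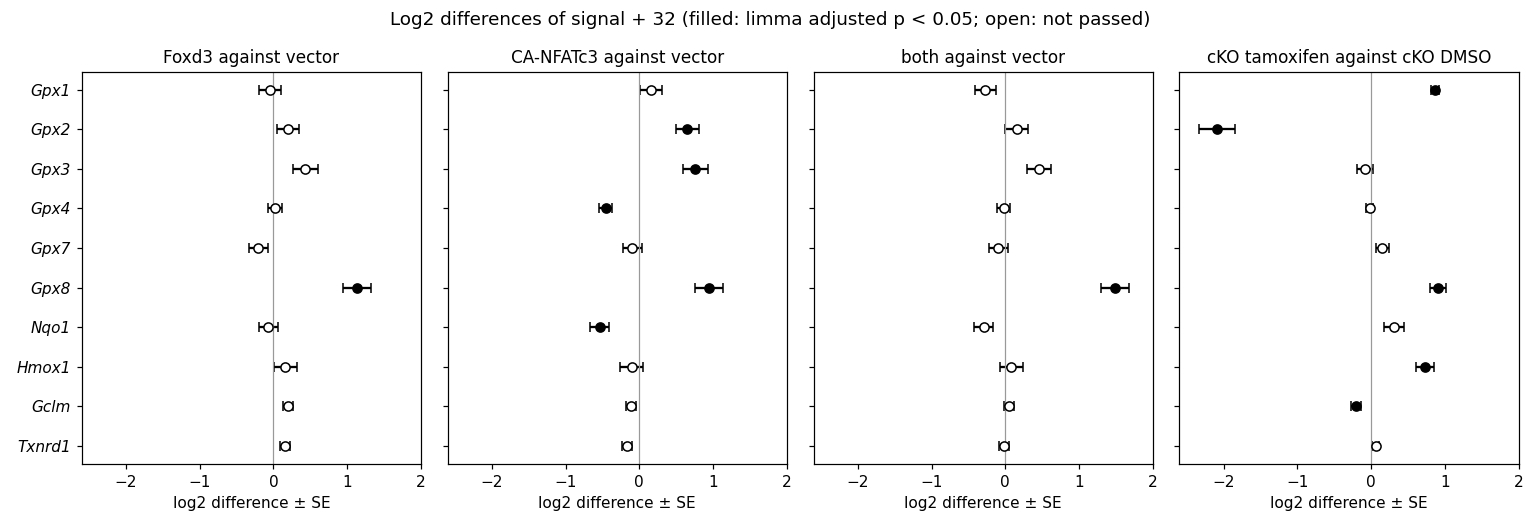
Log2 difference of signal plus 32 (horizontal, ± SE of the limma fit, 3 arrays a group) of each gene in 4 comparisons; filled points had an adjusted p under 0.05. Gpx8 is filled in all 4 panels, Gpx4 and Nqo1 are filled on the left of 0 for CA-NFATc3 alone among these panels, and Gpx2 lies at 0.65 with CA-NFATc3 and -2.09 with tamoxifen.

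Tamoxifen for 2 days was set against DMSO for the effect of deleting Foxd3. Gpx1, Gpx8 and Hmox1 rose, Gpx2 and Gclm fell, and Gpx3, Gpx4, Gpx7, Nqo1 and Txnrd1 did not pass. This share of 5 in 10 is read against 34.4% of all genes called (17.5% higher and 16.9% lower). Gpx2 had signals of 22.2, 74.2 and 22.2 with tamoxifen, against 242, 267 and 260.2 with DMSO (-2.09 ± 0.24, limma adjusted p = 5.88e-05). Only the second tamoxifen array reached 65.8, so the size depends on the offset: the difference was -2.95 with none and -1.67 with an offset of 64. Gpx1 had 11987, 11909.7 and 12873 with tamoxifen, against 7084, 6353 and 6763 with DMSO (0.86 ± 0.05, 1.82-fold, adjusted p = 3.08e-07). Its arrays clustered tightly within each treatment and lay far apart between them.

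Gpx8 had 1382, 1793 and 1566 with tamoxifen, against 773, 745 and 963 with DMSO (0.91 ± 0.11, 1.88-fold, adjusted p = 8.57e-05). Hmox1 had 537, 627 and 505 with tamoxifen, against 359, 264 and 348 with DMSO (0.73 ± 0.13, 1.66-fold, adjusted p = 0.00111). Neither gene's groups overlapped. Gclm had 2287, 2555 and 2432 with tamoxifen, against 2963, 2672 and 2766 with DMSO (-0.21 ± 0.06, adjusted p = 0.0267), a small fall in 1 of its 2 probe sets. The dimmer probe set had 360.4, 253 and 325 with tamoxifen, against 320.4, 217 and 288 with DMSO (0.17, adjusted p = 0.471, where 28.3% of all probe sets were called), and the call ended with the mean of both (-0.02, adjusted p = 0.903), and without DMSO replicate 1 (0.0577) or tamoxifen replicate 1 (0.113) or 3 (0.0686). Nqo1 had 576, 743 and 517 with tamoxifen, against 550.3, 417 and 487 with DMSO, and did not pass (0.31, adjusted p = 0.102), but did with array weights (0.0345) or without DMSO replicate 1 (0.0479). Gpx4 was at -0.02 (adjusted p = 0.773) and Txnrd1 at 0.06 (0.323).

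Genes around the NRF2 system moved in both directions with tamoxifen, where 34.4% of all genes were called (17.5% higher and 16.9% lower). Of the 19 tested NRF2 targets, 6 were higher and 4 lower, and the median was 0.14 against -0.01 over all genes; among the higher were Fth1 (0.64), Srxn1 (0.56 ± 0.10, adjusted p = 0.00152) and Ugdh (0.45), with Gclc at 0.14 (adjusted p = 0.12). Nfe2l2 itself was at -0.01 (adjusted p = 0.914). Of the 9 regulators 3 were higher and 0 lower: Sqstm1 (0.84), the autophagy receptor p62 that binds Keap1, Mafg (0.47), a small Maf partner of NRF2, and the related factor Nfe2l1 (0.21). In the thioredoxin list 3 of 16 were higher and 2 lower, Txnip, the thioredoxin inhibitor, at -1.38 ± 0.08, Glrx at 1.19 and Sesn1, a sestrin, at -0.82. Glutathione metabolism had 2 of 10 higher, Chac1 (0.51), which degrades glutathione, and the synthetase Gss (0.28), and 2 lower, Ggct (-0.52) of the glutamyl cycle and Gclm. The transferases had 4 of 15 higher, led by Mgst1 (1.04), Gsto1 (0.86) and Gstm2 (0.47), and 3 lower.

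Selenoprotein genes were higher in 6 of 18 and lower in 2, with Selenow (1.07), Selenos (0.65) and Selenom (0.43) changing most. Iron and lipid peroxidation genes were higher in 3 of 11 and lower in 3, Slc40a1 at 1.05 and the pyrimidine enzyme Dhodh at -0.59 among them, and Sod2 was the 1 called of 4 in its list (0.21). Over all lists without the 10 genes, 24 of 87 were higher and 13 lower (42.5% called, against 34.4% of all genes, median 0.07). Gpx5 stayed under the filter on every array (3.79 to 44.7), and Gpx6 was at -0.14 (adjusted p = 0.605).

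**Figure D4:**
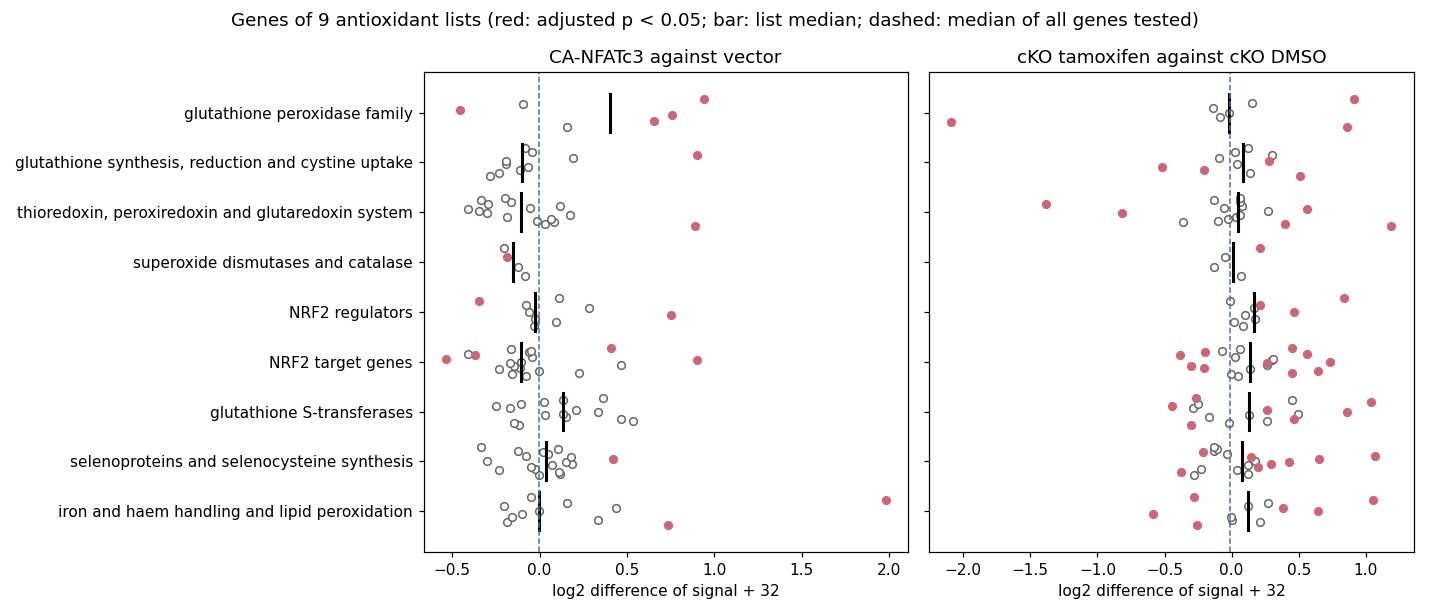
Log2 difference of signal plus 32 (horizontal) of each tested gene in 9 redox lists (rows), for CA-NFATc3 against vector and for tamoxifen against DMSO in conditional knockout cells; red points had an adjusted p under 0.05, black bars are list medians and the dashed line is the median of all genes. List medians lie between -0.15 and 0.41 with CA-NFATc3 and between -0.02 and 0.16 with tamoxifen, with red points on both sides of 0 in most tamoxifen rows.

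Fibroblast markers moved with tamoxifen as well: 8 of 9 were higher and 0 lower, and their summed signal was 16319 to 18479.8 with tamoxifen and 3059.6 to 3635 with DMSO. Dcn had a mean of 2863 with tamoxifen and 225 with DMSO, and Postn 3172 with tamoxifen and 255 with DMSO. RNA quality, read as the 3′ over 5′ signal of the actin control probe sets, stood at 1.89 ± 0.00311 with tamoxifen and 2.15 ± 0.0884 with DMSO. The same ratio for the Gapdh control probe sets was 1.015 ± 0.0144 with tamoxifen and 1.013 ± 0.0309 with DMSO. Of all genes tested, 17.5% were called higher and 16.9% lower with tamoxifen. Of the stem cell markers 4 of 8 were lower and 0 higher, Tdgf1 averaging 13433 with tamoxifen and 18902 with DMSO, and of the trophectoderm markers 3 of 7 were lower and 1 higher. The part of any of these in the changes of Gpx1, Gpx2, Gpx8, Hmox1 and Gclm was not tested. In the transfected cells, where Gpx8 also rose, fibroblast markers called higher than with vector were 0 of 5 with the label Foxd3, 1 of 5 with CA-NFATc3 and 3 of 5 with both plasmids. The shares of all genes called higher were 1.71%, 4.62% and 3.48%, in the same order. Col1a2 averaged 71.7 with the label Foxd3, 51.6 with CA-NFATc3, 319 with both plasmids and 27.2 with vector. Col3a1 averaged 22.4 with the label Foxd3, 221 with CA-NFATc3, 123 with both plasmids and 18.1 with vector. Dcn, Postn, Lum and Col1a1 had means of at most 33.9 in every transfected group. The summed fibroblast markers there were 721 to 748 with the label Foxd3, 794 to 989 with CA-NFATc3, 1197 to 1335 with both plasmids and 585 to 617 with vector, and their part in the Gpx8 changes was not tested.

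Conditional knockout cells with DMSO were also set beside vector-transfected cells in 1 fit of all 18 arrays. Cells, transfection and any batch cannot be told apart here, 55.0% of all genes were called (33.0% higher and 22.0% lower), and the median over all genes was 0.11. Gpx8 (2.78 ± 0.17, adjusted p = 6.08e-11), Gpx3 (1.00 ± 0.15) and Txnrd1 (0.59 ± 0.06) were higher in the conditional knockout cells. Gpx1 (-0.58 ± 0.13) and Nqo1 (-0.59 ± 0.14) were lower, and the other 5 did not pass, though averaging both Gclm probe sets gave a call (-0.30, adjusted p = 0.0221). Markers of several cell types moved as well: 8 of 9 fibroblast markers were higher (median 1.86) and 0 lower, 6 of 8 trophectoderm markers were higher (median 2.08) and 1 lower, and 6 of 8 stem cell markers were lower and 0 higher. The summed trophectoderm signal was 11520.6 to 15739 with DMSO and 3389 to 4028 with vector. Its brightest genes were the keratins Krt8 (4985) and Krt18 (4838) with DMSO and Tfap2c (2849) with vector. Elf5 and Gata3 of that list had means under the filter in both groups. Nanog averaged 6017 with DMSO and 14756 with vector. Their part in these differences was not tested.

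The genes most like each of the 9 called genes were found over 11213 genes by Pearson correlation over the 18 arrays, after centring the transfected and the conditional knockout arrays separately. The correlations share arrays and group differences and are descriptions. Gpx8 was most like Slc25a24 (r = 0.96) and Ghr (0.94), and Slc25a24 had means of 376 with the label Foxd3, 305 with CA-NFATc3, 422 with both plasmids and 169.8 with vector. Gpx1 was most like Fbxw17 (0.95) and Med10 (0.93), Gpx4 like Myo10 (0.91) and Ier5l (0.89), and Gpx2 like Ugt8a (0.90) and Nudcd1 (0.89). Hmox1 was most like Derl1 (0.91) and Dnajb11 (0.89), and Gclm like Tafa4 (0.90) and Gstcd (0.90). Gpx3 (Slc17a5 and Vgf, 0.87 and 0.86), Txnrd1 (Cgnl1 and D930003E18Rik, 0.87 and 0.83) and Nqo1 (Ust and Aebp2, 0.83 and 0.78) had looser partners.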

How the data were processed

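The authors deposited 1 intensity per probe set, a linear MAS5 signal by the notes on processing that the submitters gave, which name no version; the mean without the lowest and highest 2% of values was 500.003 to 500.004 in every array. Detection calls and background steps are not stated in these sources. Of 45101 probe sets, 34945 had 1 symbol in the platform annotation, and each gene was read by the one with the highest mean log2 value. Signals plus 32 were put on the log2 scale and fitted with limma 3.58.1 in R 4.3.3 (with a variance trend), in 1 fit of the 12 transfected and 1 of the 6 conditional knockout arrays, and over 18 arrays for DMSO against vector; p-values were two-sided and adjusted by Benjamini and Hochberg. The other probe sets come from the same fits over all probe sets. On simulated data, 88% of genes changed by 1 on the log2 scale were recovered for Foxd3 against vector (11609 genes) and 86% for tamoxifen against DMSO (12093 genes). Unchanged genes called were 10 and 11. The simulated arrays were drawn independently, without the pairing by replicate number described below. Changes smaller than 1 were not simulated, so these rates do not describe the smaller calls. Figures used Python 3.11.15 and matplotlib 3.10.9.

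Residuals of the transfected arrays with equal replicate numbers correlated at 0.104 to 0.315 in all 18 pairs. From the data alone, the numbers were therefore taken to pair the samples. The main fits of the transfected arrays have no such block, so their p-values and shares of all genes leave this pairing out. Blocked values stand beside the results they change. In the conditional knockout cells the 3 pairs were at -0.0425 to 0.0152. The labels say the replicates are biological, without saying whether they are separate cultures. The number of arrays limits the precision. The 10 genes and the redox lists were chosen with earlier results of these data known. Genes named were the 10, the 3 largest called changes in each list and most comparisons, and a fixed set of controls and NRF2 genes. For both plasmids against CA-NFATc3 the other list genes were only counted: 3 of 86 higher and 3 lower (6.98% called, against 6.12% of all genes). The same holds for DMSO against vector: 28 of 88 higher and 18 lower (52.3% called, against 55.0% of all genes). G6pdx, Ggt1, Prdx1, Prdx5, Prdx6 and Ftl1 of the lists are not analysed here. Alternatives were other offsets, filters, normalization, probe set choice, array weights, other arrays in the fit and single arrays left out.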

Additional observations from a re-analysis of the deposited data

Results flagged for a closer look

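None of the 10 genes had an interaction that passed, but 2 of the 86 other genes of the redox lists did (2.33%, where 0.810% of all genes were called), their difference between Foxd3 and no Foxd3 plasmid being unlike with and without CA-NFATc3. The Foxd3 signal was lower in both groups that carry the Foxd3 label. For Slc40a1, the iron exporter ferroportin, the interaction was -1.65 ± 0.23 (limma adjusted p = 0.00144). Its signal was 167 ± 40.8 (SD, n = 3) with both plasmids and 516 ± 79.6 with CA-NFATc3, beside 124 ± 12.1 with the label Foxd3 and 106 ± 10.2 with vector. For the glutaredoxin Glrx the interaction was -0.92 ± 0.18 (limma adjusted p = 0.0192). Its signal was 445 ± 63.6 with both plasmids and 758 ± 82.3 with CA-NFATc3, beside 454 ± 48.1 with the label Foxd3 and 395 ± 38.3 with vector. Groups of 3 arrays were too small to test single arrays as outliers.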

How the results depend on the processing

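The 18 called changes of the 10 genes kept their direction in all 278 alternative fits; 13 kept their call throughout, and the other 5 lost it in 16 fits in all, given beside each result except for Gpx2 with CA-NFATc3, whose call also ended with all 18 arrays in 1 fit (adjusted p = 0.0611). With the replicate block the number of the 10 genes called was 2 for both plasmids against vector, 4 for both against CA-NFATc3 and 1 for the interaction; with array weights it was 2 for both against CA-NFATc3 and 1 for the interaction, and with all 18 arrays in 1 fit it was 2 for both against CA-NFATc3. No other call of the 10 genes changed under the block. Leaving out single arrays gave 2 (without vector replicate 1 or CA-NFATc3 replicate 3) to 5 called for CA-NFATc3 against vector, 1 to 2 for both against vector and 0 (without CA-NFATc3 replicate 3) to 2 (without replicate 1 of both) for both against CA-NFATc3. The mean of a gene's probe sets turned Txnrd1 to -0.0369 for Foxd3 against vector and to 0.0938 for both against Foxd3, and quantile normalization turned Gclm to 0.00064 for DMSO against vector; none of these 3 was called. A further 42 differences had an unadjusted limma p of 0.05 or more and were never called. Of these, 18, at most 0.14 in size, changed sign in some alternative, and the cause was not tested. Counts over all genes were 334 for Foxd3 against vector (783 with the block, 552 with array weights, 220 with the mean of probe sets, 158 without Foxd3 replicate 3), 680 for CA-NFATc3 (1104 with the block, 349 without CA-NFATc3 replicate 3), 559 for both against vector (1122 with the block, 322 without vector replicate 3), 711 for both against CA-NFATc3 (1258 with the block, 385 without CA-NFATc3 replicate 3), 38 for both against Foxd3 (96 with the block, 22 without Foxd3 replicate 2) and 94 for the interaction (245 with the block, 48 without CA-NFATc3 replicate 3). Dim probe sets, Gpx2 with tamoxifen above all, have sizes that depend on the offset.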
